A study of Mus musculus with 2 samples.

Results

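Mir296 and Mir298 are 2 of the 2202 miRNA genes counted in short-RNA libraries of mouse hippocampus. They were taken by gene identifier, ENSMUSG00000065521.1 for Mir296 and ENSMUSG00000065410.1 for Mir298, in the GENCODE M21 annotation. The rule names only their identity and position, but the pair was selected on a view of these same counts, with the CPM of both genes and its difference between the libraries known. Every level and difference below is therefore a description without a test. Both genes were among the 433 detected genes, those with at least 2 CPM (counts per 1000000 counts in miRNA gene rows) in each library.

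The libraries came from female B6CASTF1/J mice, a first-generation cross of C57BL/6J and CAST/EiJ, aged 25 days and with no treatment named. The labels give 1 group of 2 biological replicates, with separate tissue entries and a shared donor entry; the tissue is given as a hippocampal layer that is not specified. Such tissue holds neurons, glia and vessel cells together, so fewer cells of a type and less RNA per cell cannot be told apart. The cross carries differences between the parental genomes, but the counts are not split by allele, so which parental copy the reads came from was not analysed here.

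A miRNA is cut from a hairpin in a longer transcript, and 1 arm or both arms of the hairpin give a short mature RNA. Bases 2 to 8 of the mature RNA, the seed, pair with target messages and lower their translation and stability. Gnas encodes the stimulatory G protein alpha subunit, which couples receptors to adenylyl cyclase, and its locus is imprinted, meaning that several of its transcripts come from only the maternal or only the paternal copy. Nespas is a noncoding transcript of the paternal copy that runs antisense to part of Gnas, and Mir296 and Mir298 have been described as paternally expressed miRNAs of the same domain. In other systems miR-296 is known from blood vessel growth and mouse miR-298 from control of the beta-secretase Bace1.

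The mature products are shown first because the seed of each arm sets its targets, and because a count per gene cannot say which arm was sequenced. All 4 mature sequences of the pair are in RefSeq on GRCm38.p6, and both hairpins were identical there and in GENCODE M21. Capitals mark the seed in each mature sequence.
mmu-miR-296-5p: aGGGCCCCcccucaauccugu
mmu-miR-296-3p: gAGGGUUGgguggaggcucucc
mmu-miR-298-5p: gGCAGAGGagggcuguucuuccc
mmu-miR-298-3p: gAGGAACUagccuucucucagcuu

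The 4 seeds differ from each other, and none of them occurred in any other of the 1738 mature mouse miRNAs of the RefSeq table. The pair is thus a pair by position and not by seed family. The miR-296-5p arm holds an unbroken run of 7 C that begins inside its seed, whereas no run of C or of G in the other arms exceeded 3 bases. The miR-296 arms are 21 and 22 bases long with 66.7% and 68.2% G and C, and the miR-298 arms are 23 and 24 bases long with 65.2% and 50%.

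The hairpins are given whole to show where the arms sit, with the mature products in capitals.
Mir296 hairpin: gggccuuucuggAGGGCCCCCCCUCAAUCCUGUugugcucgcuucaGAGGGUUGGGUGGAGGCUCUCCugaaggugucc
Mir298 hairpin: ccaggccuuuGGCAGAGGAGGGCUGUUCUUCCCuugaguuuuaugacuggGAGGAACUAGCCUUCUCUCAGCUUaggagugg

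The Mir296 hairpin has 79 bases, with its 5p arm at positions 13 to 33 and its 3p arm at 47 to 68, counted from the 5′ end. The Mir298 hairpin has 82 bases, with the arms at positions 11 to 33 and 51 to 74. RNAfold gave similar minimum free energies, -43.2 kcal/mol with 31 base pairs for Mir296 and -42.7 kcal/mol with 32 base pairs for Mir298. The longest run of bases common to both hairpins was 7, and the longest that either shared with any other miRNA gene of the table on the same strand was 11 for Mir296 and 12 for Mir298. Neither gene therefore has a copy by the measure used here, an identical stretch of at least 22 bases at another miRNA locus, which 69 of the 433 detected genes do have. Multi-mapping reads are left out of all gene counts, but no copy of this kind takes reads from the pair.

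In mm10 Mir296 lies on the minus strand of chromosome 2 from 174267047 to 174267125, and Mir298 on the same strand from 174267504 to 174267585, with 378 bases between them. Transcription on this strand passes Mir298 before Mir296. Neither hairpin overlapped another gene of GENCODE M21, so both are intergenic in the annotation the counts were made with. The annotated 3′ end of Nespas, on the same strand, lies 13.7 kb from Mir298 on its upstream side (174281237 to 174295436), and the start of Gnas, on the plus strand, lies 16.7 kb away (174284320 to 174346744). The nearest other miRNA entries of the table had few or no counts. Gm27591, 19052 bases away on the plus strand, had 0 counts in both libraries, which allows up to 3 counts in each, but it has copies at 10 other loci, so a count of 0 does not show that it was silent. On the other side Mir7005 (distance 5912170 bases) had 0 counts in replicate 1 and 2 in replicate 2.

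**Figure D1:**
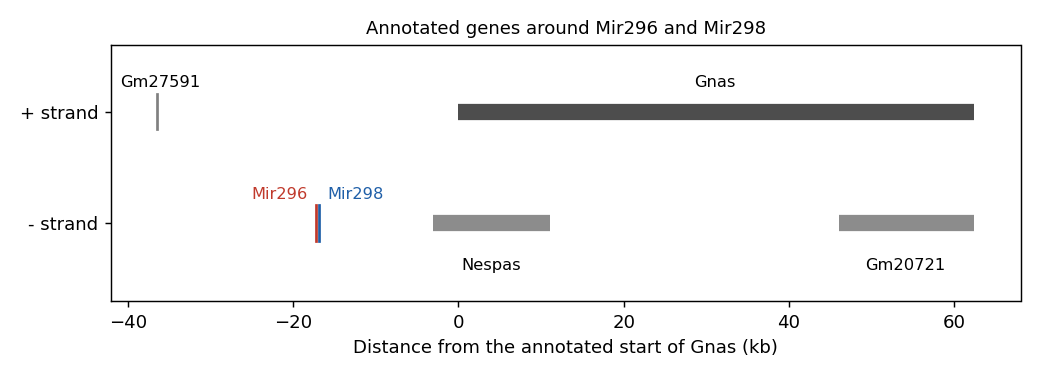
Annotated genes around Mir296 and Mir298, by strand, against distance in kb from the annotated start of Gnas (bars and ticks span the gene models of GENCODE M21). The miRNA genes sit side by side outside Gnas and Nespas, 16.7 kb from Gnas and 13.7 kb from Nespas, on the strand of Nespas.

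The libraries hold 5481053 and 4266963 counts in gene rows, 35.4% and 31.2% of the reads their tables account for, and multi-mapping reads were 41.9% and 46.4%. The replicates stand apart from each other across many genes. Of the 433 detected genes 188 differed by at least 2-fold between them, which is 43.4% of the genes, and 120 were at least 2-fold higher in replicate 2 (27.7%) against 68 lower (15.7%). Of the genes past 2-fold, 63.8% were higher in replicate 2 with library totals, 47.7% with edgeR TMM scaling and 49.7% with DESeq2 size factors, which move the median log2 difference of detected genes by -0.29 and -0.27. Neuronal markers were present, with 7 of 10 list genes detected and 4.04% and 4.28% of the counts, among them Mir128-1, Mir132 and Mir137. The near-equal sums hide members that differed: 3 of the 7 were at least 2-fold higher in replicate 2 (Mir137 by 1.40 on the log2 scale) and 2 lower (Mir132 at -2.09 and Mir138-1 at -1.26), and 8 of the 10 have copies at other loci.

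Mir296 was counted 6746 times in replicate 1 and 40976 times in replicate 2. This is 1231 CPM (exact Poisson 95% interval 1202 to 1261) in replicate 1 and 9603 CPM (9510 to 9697) in replicate 2. Replicate 2 was thus the high library, by a ratio of 7.80 (95% interval 7.60 to 8.01), or 2.96 on the log2(CPM + 1) scale. The mean was 5417 ± 5920 CPM (SD, n = 2), so the spread between the replicates exceeded the mean. Among all 2202 genes Mir296 stood at position 99 by CPM in replicate 1 and at position 23 in replicate 2.

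Mir298 was counted 17596 times in replicate 1 and 55849 times in replicate 2. The levels were 3210 CPM (3163 to 3258) and 13089 CPM (12980 to 13198), with a mean of 8150 ± 6985 CPM (SD, n = 2). Replicate 2 was again the high library, by a ratio of 4.08 (4.01 to 4.15), or 2.03 on the log2 scale. Its position by CPM was 57 in replicate 1 and 18 in replicate 2. These intervals cover counting error only, since the counts do not tell PCR duplicates from separate molecules, and with 1 library on each side they say nothing about a condition.

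**Figure D2:**
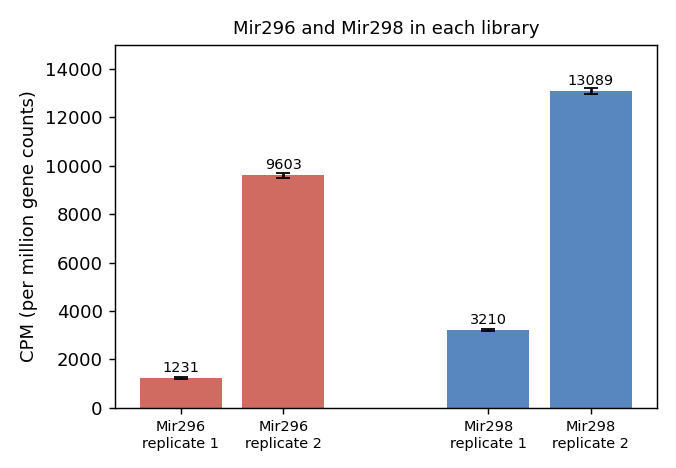
CPM of Mir296 (red) and Mir298 (blue) in each library, 1 bar per library, with exact Poisson 95% intervals of the count as error bars. Both genes are higher in replicate 2, Mir296 at 9603 against 1231 CPM and Mir298 at 13089 against 3210 CPM.

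Mir298 was the more abundant of the pair in both libraries, but by different margins. It had 2.61 counts for each count of Mir296 in replicate 1 (exact 95% interval 2.54 to 2.68) and 1.36 in replicate 2 (1.35 to 1.38), or 1.99 ± 0.881 (SD, n = 2). Per base of hairpin the ratio was 2.51 and 1.31. This ratio is taken within a library and so does not depend on how the libraries are scaled. Across the libraries the ranges of the 2 genes overlapped, because Mir296 in replicate 2 stood above Mir298 in replicate 1, and the difference between their mean CPM was smaller than either SD.

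Together the pair accounted for 0.444% of replicate 1 (exact Clopper-Pearson 95% interval 0.439 to 0.450). In replicate 2 its share was 2.27% (2.26 to 2.28), 5.11 times as large. The counts of both genes came from 1 strand: the opposite strand column held 0 counts for each gene in each library, which allows up to 3 counts, or 0.547 CPM in replicate 1 and 0.703 CPM in replicate 2. The counts without strand were equal to those of the main strand.

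Both members were past 2-fold higher in replicate 2, against 27.7% of the detected genes, and both were past 4-fold, against 10.4%. The log2 difference of Mir298 fell short of 4-fold with TMM on detected genes (1.73), TMM on all rows with a count (1.67), DESeq2 size factors (1.75) and all reads as denominator (1.84), while Mir296 stayed past it under each. Because the pair was proposed with such values known, nothing is read from these counts. Among the 87 genes with at least 1000 CPM in each library, 19 were at least 2-fold higher in replicate 2 (21.8%) and 6 at least 4-fold (6.9%). None of these 87 had a larger log2 difference than Mir296, and 5 had a larger one than Mir298: Mir296 itself, Mir130a, Mir181d, Mir93 and Mir125b-1. Among all 433 detected genes 18 exceeded Mir296 and 38 exceeded Mir298. The cut-off of 1000 CPM in each library leaves out genes that were lower in replicate 1, such as Mir17 (782 and 9932 CPM, log2 3.67). The place of Mir296 at the top thus holds only within the 87.

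**Figure D3:**
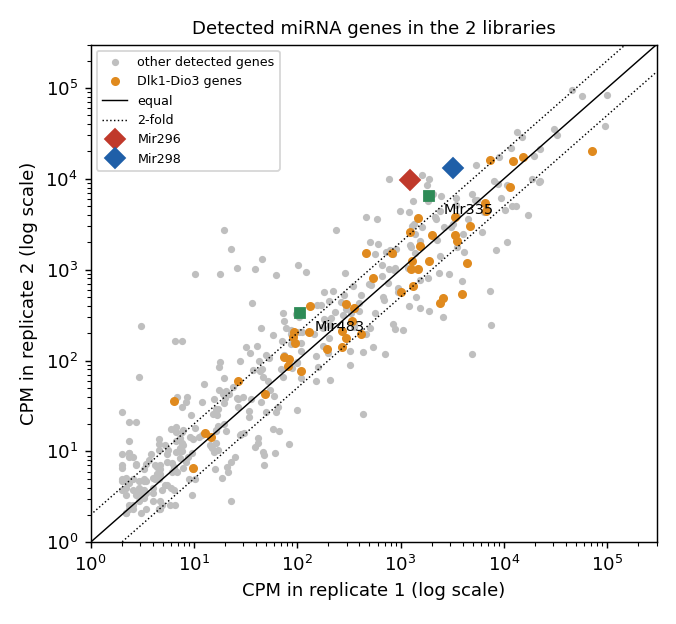
CPM in replicate 2 against CPM in replicate 1 for the 433 detected genes, both axes on a log scale, with lines at equality and at 2-fold. Mir296 and Mir298 (diamonds) lie above the upper 2-fold line, as do Mir335 and Mir483 (green squares), while the 51 detected genes of the Dlk1-Dio3 domain (orange) scatter on both sides of equality.

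The other cell-type lists differed between the libraries in some sums and members but not in others. The epithelial and sensory list (the miR-200 family and the Mir183 cluster) had 6 of 8 genes detected. All 6 were at least 2-fold higher in replicate 2, beside 27.7% of all detected genes. The summed share of the list was 0.0101% in replicate 1 and 0.766% in replicate 2. None of its 8 genes was at 0 in either library, though Mir96 had 1 count and Mir141 4 counts in replicate 1. The oligodendrocyte list (3 of 3 detected, none at 0) went from 0.650% to 0.0939%, a sum carried by Mir219a-2 (4960 and 119 CPM). Its member Mir219a-1 lay on the other side (12.4 and 54.8 CPM). Of the 3 genes, 1 was at least 2-fold higher in replicate 2 and 2 were lower. Over all detected genes 27.7% were higher and 15.7% lower by this measure. Copies elsewhere make the counts of Mir219a-1 and Mir219a-2 uncertain. The microglia and immune list went from 0.131% to 0.0600%, a sum carried by Mir150 (1215 and 397 CPM). Its other 3 genes were at least 2-fold higher in replicate 2. The pancreas and pituitary list (2 of 3 detected) summed to 0.0200% in both libraries, with Mir217 at 4.10 (log2) and Mir375 at -0.69. Its other gene, Mir216a, was below 2 CPM in replicate 1 and had 3 counts there and 51 in replicate 2. The erythroid list went from 0.00881% to 0.00659%, with 2 of 3 genes at least 2-fold lower in replicate 2. The summed share of the endothelial and mural list (3 of 3, none at 0) went from 2.20% to 1.29%. All 3 genes lay within 2-fold, at -0.93 (log2) for Mir126a, -0.41 for Mir145a and -0.07 for Mir143. The sum was carried by Mir126a (18708 and 9834 CPM). The summed share of Mir296 and Mir298 exceeded that of the whole epithelial and sensory list in both libraries. It was 0.444% against 0.0101% in replicate 1 and 2.27% against 0.766% in replicate 2, which does not show which cells carried the pair. The part of these lists in the difference of Mir296 and Mir298 was not tested.

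G and C content was looked at because the miR-296 arms are rich in both. The hairpin of Mir296 has 63.3% G and C and that of Mir298 53.7%, against a median of 52.3% over the detected genes, and 53 of the 433 were at or above Mir296. Across the 433 genes, which share the same 2 libraries, hairpin G and C content and the log2 difference had a Pearson r of -0.15 and a Spearman rho of -0.18. The part of base composition in the difference of Mir296 and Mir298 was not tested.

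Other imprinted miRNA genes give the setting for the pair. The Dlk1-Dio3 domain on chromosome 12, whose miRNAs come from the maternal copy, had 51 of 67 entries detected. The summed share of the domain was 18.0% in the first library and 12.5% in the second. Most of this fall was carried by 1 gene, Mir127 (71805 and 20505 CPM). Of the 51, 9 were at least 2-fold higher in replicate 2 and 6 lower, with a median log2 difference of -0.04, against 0.27 over all detected genes. These are 17.6% and 11.8% of the 51, beside 27.7% and 15.7% of all detected genes. With TMM scaling or DESeq2 size factors 4 were higher (7.84%) and 11 lower (21.6%), beside 19.4% and 21.2% of all detected genes with TMM, and 20.6% and 20.8% with DESeq2 size factors. The log2 differences ran from -2.88 to 2.34, so 1 of the 51, Mir758, exceeded Mir298 and none exceeded Mir296. Mir1247 of the same domain is outside the 51, because it was below 2 CPM in replicate 2. It had 148 CPM in replicate 1 and 1.64 CPM in replicate 2 (log2 -5.82), a larger difference than any of the 51.

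The 3 most abundant genes of that domain differed among themselves. Mir127, which lies antisense to the paternally expressed Rtl1, was at 71805 CPM in replicate 1 and 20505 in replicate 2, 3.50-fold lower (3.48 to 3.53) in the library where Mir296 and Mir298 were high. Mir487b was at 15302 and 17234 CPM, and Mir770, in the Meg3 transcript, at 12293 and 15820. The small difference of Mir487b turned to -0.13 (log2) with TMM and -0.10 with DESeq2 size factors, whereas that of Mir770 kept its sign at 0.06 and 0.09.

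Set against the Dlk1-Dio3 genes within each library, where scaling plays no part, the Gnas-linked pair had counts equal to 2.47% of theirs in replicate 1 (95% interval 2.44 to 2.50) and 18.1% in replicate 2 (17.99 to 18.2). The Dlk1-Dio3 sums include Mir127, so its lower count in replicate 2 is part of this difference. Mir296 alone had 1.71% of the count of Mir127 in replicate 1 and 46.8% in replicate 2, and Mir298 had 4.47% and 63.8%. By CPM among 191 entries of these imprinted lists, Mir298 was at position 14 in replicate 1 and 5 in replicate 2, and Mir296 at 26 and 6.

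Single miRNA genes with imprinted hosts are Mir335 in Mest and Mir483 in Igf2, both hosts expressed from the paternal copy, and Mir675 in the maternally expressed H19. Mir335 was at 1903 CPM in replicate 1 and 6479 in replicate 2, which is 3.40-fold (3.33 to 3.48). Mir483 was at 107 and 330 CPM, which is 3.08-fold (2.80 to 3.40). Mir675 had 0 counts in both libraries, which allows up to 3 counts in each. Mir335 and Mir483 were thus high in the same library as Mir296 and Mir298, by smaller ratios. Both stayed at least 2-fold higher there with TMM and DESeq2 scaling. Over all detected genes 27.7% were at least 2-fold higher in replicate 2 with library totals, 19.4% with TMM and 20.6% with DESeq2 size factors.

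The Sfmbt2 entries on chromosome 2, repeated hairpins inside an imprinted gene, had 8 of 119 detected. Their summed shares were 0.179% and 0.198%. Of the 119 entries 117 have copies at other loci, so a low count or a count of 0 does not show that an entry was silent. With library totals all 8 lay within 2-fold. With TMM or DESeq2 size factors 1 of the 8 was at least 2-fold lower in replicate 2 (12.5%). Over all detected genes 21.2% were lower with TMM and 20.8% with DESeq2 size factors. The most abundant were Mir467d at 872 and 990 CPM, Mir669c at 394 and 349, and Mir467e at 233 and 341. All 3 have copies at other loci, unlike Mir296 and Mir298, so their counts are uncertain. The median log2 difference of the 8 detected entries was 0.19 with library totals and -0.11 with TMM, so no direction is given for them. Imprinted miRNA genes as a class therefore did not all lie on the side of the pair.

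**Figure D4:**
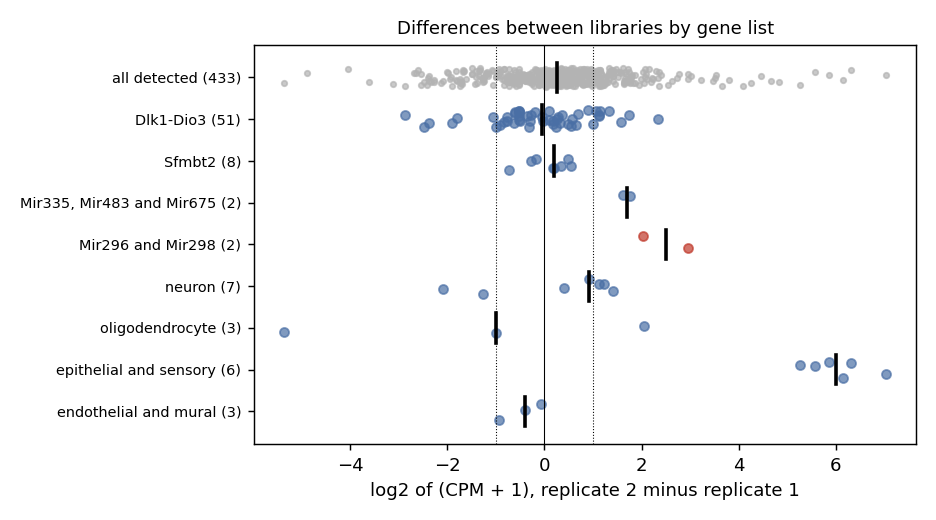
Difference between libraries, log2 of (CPM + 1) in replicate 2 minus replicate 1, for the detected genes of each list shown. Each point is 1 gene, with vertical jitter only and the number of genes in brackets. Black bars mark medians and dotted lines mark 2-fold. The microglia and immune, pancreas and pituitary, and erythroid lists are not drawn. Mir296 and Mir298 sit at 2.96 and 2.03, right of all detected Dlk1-Dio3 genes except Mir758, which exceeds Mir298, and left of the 6 epithelial and sensory genes.

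The genes whose levels were most like those of the pair were found by the Euclidean distance of log2(CPM + 1) over the 2 libraries, which reflects both level and difference. The nearest to Mir296 were Mir130a (distance 0.45, 1619 CPM in replicate 1 and 11080 in replicate 2), Mir93 (0.57, 1791 and 8477 CPM), Mir181d (0.62, 1890 and 9994 CPM), Mir17 (0.66, 782 and 9932 CPM) and Mir125b-1 (0.76, 1321 and 5700 CPM). Mir125b-1 has a copy at 1 other locus, so its count is uncertain. Mir130a also lies on chromosome 2, and the other 4 lie on other chromosomes.

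The nearest to Mir298 were the neuronal Mir137 (0.74, 5321 and 14089 CPM), Mir181d (0.86), Mir130a (1.02), Mir93 (1.05) and Mir128-2 (1.10, 2470 and 6393 CPM). Mir128-2 also has a copy at 1 other locus, so its count is uncertain. Mir181d, Mir130a and Mir93 were in both sets. The neighbours were not each other's nearest: at a distance of 1.45, Mir298 was number 13 in order from Mir296 and Mir296 number 15 from Mir298. A likeness over 2 libraries is a likeness of 2 values, and it says nothing of shared control.

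Neighbouring miRNA genes are often cut from 1 transcript, so the pair was set beside all other adjacent detected miRNA genes on the same strand with starts within 10 kb. There were 107 such pairs. The log2 differences of Mir296 and Mir298 were 0.94 apart, where the other pairs had a median of 0.79, and 64 of the 107 (59.8%) were closer to each other than this pair. In 71 of the 107 both genes lay on the same side, and in 13 both were at least 2-fold higher in replicate 2. In 7 pairs both genes had a log2 difference at least as large as that of Mir298: neighbours of the miR-200, Mir183, Mir17, Mir93 and Mir130b clusters. The gap between Mir296 and Mir298 was thus of a size common among neighbours. Many of these pairs share a gene, so they are not independent.

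**Figure D5:**
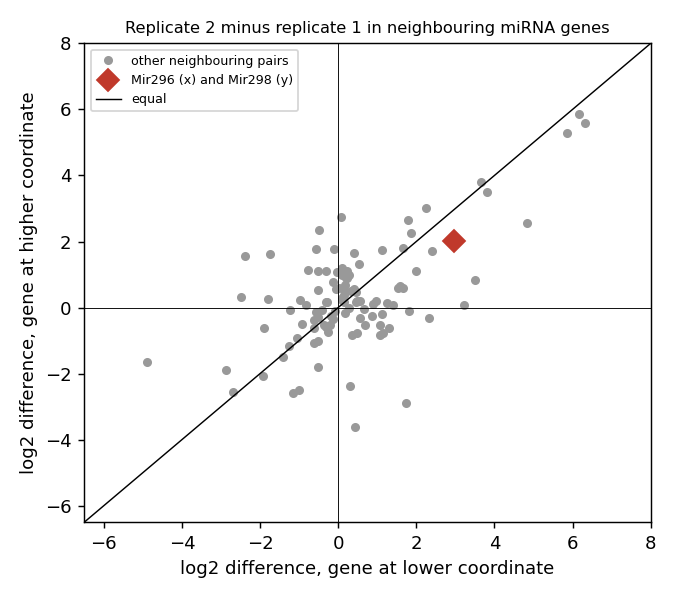
Log2 difference between libraries (replicate 2 minus replicate 1) for neighbouring detected miRNA genes, the gene at the lower coordinate on the x axis and the other on the y axis, 1 point per pair. Mir296 and Mir298 (red diamond, at 2.96 and 2.03) lie in the upper right, below the line of equality.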

How the data were processed

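The authors deposited, for each of the 2 libraries, a table of raw read counts per miRNA gene without a header line. Per the labels and the deposited accompanying text, reads were placed on mm10 and counted over GENCODE M21. Aligner, trimming and counting options were not given in the sources used here. The first of the 3 count columns was read as counts without strand and the others as 1 strand each, and column 3 of the file was used. The 4 rows that name no gene stayed out of totals (unmapped reads were 17.1% and 17.2%, reads outside miRNA genes 5.56% and 5.17%).

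CPM, ratios and intervals were computed here with Python 3.11.15 and scipy 1.17.1, scalings with edgeR 4.0.16 and DESeq2 1.42.0, and folds with ViennaRNA 2.7.2. All 2202 identifiers matched GENCODE M21. With 1 group no comparison between conditions was possible, and no significance test was run. Members and lists were chosen with earlier results of these data known. Genes named were the members, the 5 nearest to each by level, and the 3 most abundant of each imprinted list. The nearest miRNA entries on each side, any gene sharing a seed, and markers were also named. Mir758, Mir1247, Mir141, Mir96, Mir216a and the genes above Mir298 were added after their values were seen. The calculation of the ratio intervals was run on simulated counts with Poisson spread only. Those counts lack the wider spread between the 2 libraries, so the run says nothing about how well the intervals cover it.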

Additional observations from a re-analysis of the deposited data

How the results depend on the processing

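Mir296 and Mir298 stayed at least 2-fold higher in replicate 2 under every scaling and count column tried. The log2 difference of Mir296 (2.96) was 2.66 with edgeR TMM on detected genes, 2.60 with TMM on all rows with a count, 2.69 with DESeq2 size factors and 2.78 with all reads as denominator. That of Mir298 (2.03) was 1.73, 1.67, 1.75 and 1.84 in the same order, and 2.00 from counts without strand. Under those first 4 settings Mir298 is below 4-fold, since each setting lowers replicate 2 against replicate 1 for all genes alike. Leaving out a library leaves the values of the other: 1231 to 9603 CPM and positions 23 to 99 for Mir296, 3210 to 13089 CPM and positions 18 to 57 for Mir298, and a ratio of Mir298 to Mir296 of 1.36 to 2.61. Each mean is therefore set by which library is kept. The number of genes past 2-fold (188) was 325 with a filter of 1 count in each library, 208 higher and 117 lower, because 651 genes then enter. The share of neighbouring pairs closer than Mir296 and Mir298 ran from 57.1% to 62.4%. No paired analysis was possible because there is 1 group. With at least 6746 counts per member and library, depth limits these values less than the number of libraries does.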
